A study of Mus musculus with 2 samples.

Results

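The 34 genes described here supply glutathione, thioredoxin and the NADPH that keeps both reduced, or regulate that supply. They were chosen by symbol from the 34745 genes of the deposited expression table, by a list that uses no measured value but was drawn up with earlier results of these data known, and all 34 had a row. The table comes from bone marrow-derived macrophages, primary cells grown from the marrow of C57BL/6 mice, that received an antisense oligonucleotide (ASO) by transfection and were stimulated with the bacterial product lipopolysaccharide (LPS). Each group has 1 library: in Control-ASO the oligonucleotide was a control, and in AclyE14-ASO it carried the name of Acly, the gene of ATP-citrate lyase. Both groups share the mouse strain and the LPS treatment, so no library shows untreated or unstimulated cells. The sources used here do not state the number of mice, the LPS dose or the times.

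Glutathione is a tripeptide made from cysteine that glutathione peroxidases and transferases spend on peroxides and reactive compounds. Thioredoxin does the same for peroxiredoxins, and both are returned to the reduced form with electrons from NADPH, much of which comes from the pentose phosphate pathway. NRF2, the transcription factor encoded by Nfe2l2, drives many of these genes through antioxidant response elements and is held low by KEAP1 until oxidants or electrophiles modify KEAP1. In macrophages NADPH also feeds the oxidase that makes superoxide and the inducible nitric oxide synthase.

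The Control-ASO library held 14215397 gene counts and the AclyE14-ASO library 12751076. With 1 library a group no test across genes could be made, so p-values are left out and every difference lacks a replicate check. Levels are the authors' FPKM, and the log2 ratio is that of FPKM + 1, AclyE14-ASO over Control-ASO, called higher or lower at 1.5-fold among the 8658 genes whose mean level reached 1 FPKM (the genes called measured or tested below). Count ratios are of counts per library total, with an exact (Clopper-Pearson) 95% interval that covers counting error only. Acly itself was at 13.3 FPKM from 1549 counts and 7.35 FPKM from 768 counts, a count ratio of 0.553 (0.506 to 0.603). Of 12 macrophage markers 11 were measured, led by Lyz2 with 176328 and 198176 counts, and 3 were higher, 2 lower and 6 between. Itgam was the highest in ratio (934 and 3972 counts, uncertain because a gene on the same strand overlaps it) and Cd68 the lowest (31123 and 15550 counts). Cd14 (22791 and 45504 counts) and Fcgr1 (1440 and 2538 counts) were also higher, and C1qa (1053 and 569 counts) was also lower. Among all genes tested 7.03% were higher and 8.48% lower. Fibroblast and stromal markers were higher in the AclyE14-ASO library: all 8 measured of 12 listed were called higher, and the summed level of the 12 was 49.3 and 216 FPKM. In the control 6 of the 12 reached 1 FPKM. Thy1 (0.243 and 3.44 FPKM) and Pdgfra (0.338 and 2.22 FPKM) passed the filter only through the AclyE14-ASO library, where they were high. The level of the list was not 0 in the control, where Acta2 was at 13.3 FPKM, while Postn had 0 and 5 counts and Lum 6 and 6. Of the neutrophil markers 2 of 9 were measured, with 608 and 986 counts summed over the list, and with S100a8 higher (276 and 520 counts) and S100a9, Ly6g, Elane and Camp at 0 counts in both libraries. Of the endothelial markers 2 of 5 were measured, and they went opposite ways. Kdr was lower (1518 and 675 counts), while Cdh5 had a ratio above equal shares but inside the limit (62 and 100 counts). Below the filter were Vwf (148 and 188 counts), Pecam1 (4 and 2 counts) and Tek at 0. Of 7 erythroid, megakaryocyte and mast cell markers only Pf4 was measured, and it was higher (25 and 71 counts). Lymphocyte and dendritic cell markers had no member with a mean of 1 FPKM, and Cd3d, Cd3e, Flt3, Xcr1 and Siglech were at 0 counts in both libraries.

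All 34 genes passed the filter, with 85 to 38298 counts in each library. In the AclyE14-ASO library 3 were higher (Gpx1, Nqo1 and Prdx4), 7 were lower (Gclc, Gsr, Txnrd1, G6pdx, Pgd, Rpia and Taldo1) and 24 lay between. Among all genes tested 7.03% were higher and 8.48% lower by this rule, so the share of higher genes here, 8.82%, lies near the background, and the share of lower genes, 20.6%, lies above it. The median log2 ratio was -0.14, against -0.13 over all genes tested, and 24 of the 34 ratios were below 0, as were 64.9% of all. Centring on the median gene, a shift of 0.13, gave 4 higher and 5 lower: Mgst1 became higher (0.63), and Txnrd1 (-0.51) and Taldo1 (-0.56) moved inside the limit. The shift also changes the shares of all genes, which are not given after centring. These centred counts therefore cannot be set against 7.03% and 8.48%. The median of the group was thus close to that of all genes, and 6 of its 7 lower genes belong to glutathione synthesis and recycling or to the pentose phosphate pathway. By counting error alone, 29 of the 34 ratios excluded equal shares, as did 66.0% of all genes tested. The count interval lay wholly beyond 1.5-fold higher for 3 genes (5.91% of all genes tested) and wholly beyond 1.5-fold lower for 6 (5.94% of all), with Txnrd1 as the exception. At 2-fold 2 genes were higher (3.18% of all) and 1 lower (1.55% of all). At a log2 limit of 0.32, 7 of the 34 were higher (14.2% of all) and 10 of the 34 lower (26.7% of all). At this limit the share of lower genes lay near that of all genes tested, and the share of higher genes above it. The excess of lower genes at 1.5-fold thus depends on the limit. Of the 30 members whose mean reached 5 FPKM, 3 were higher (6.29% of all genes at that level) and 5 lower (9.60%).

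**Figure D1:**
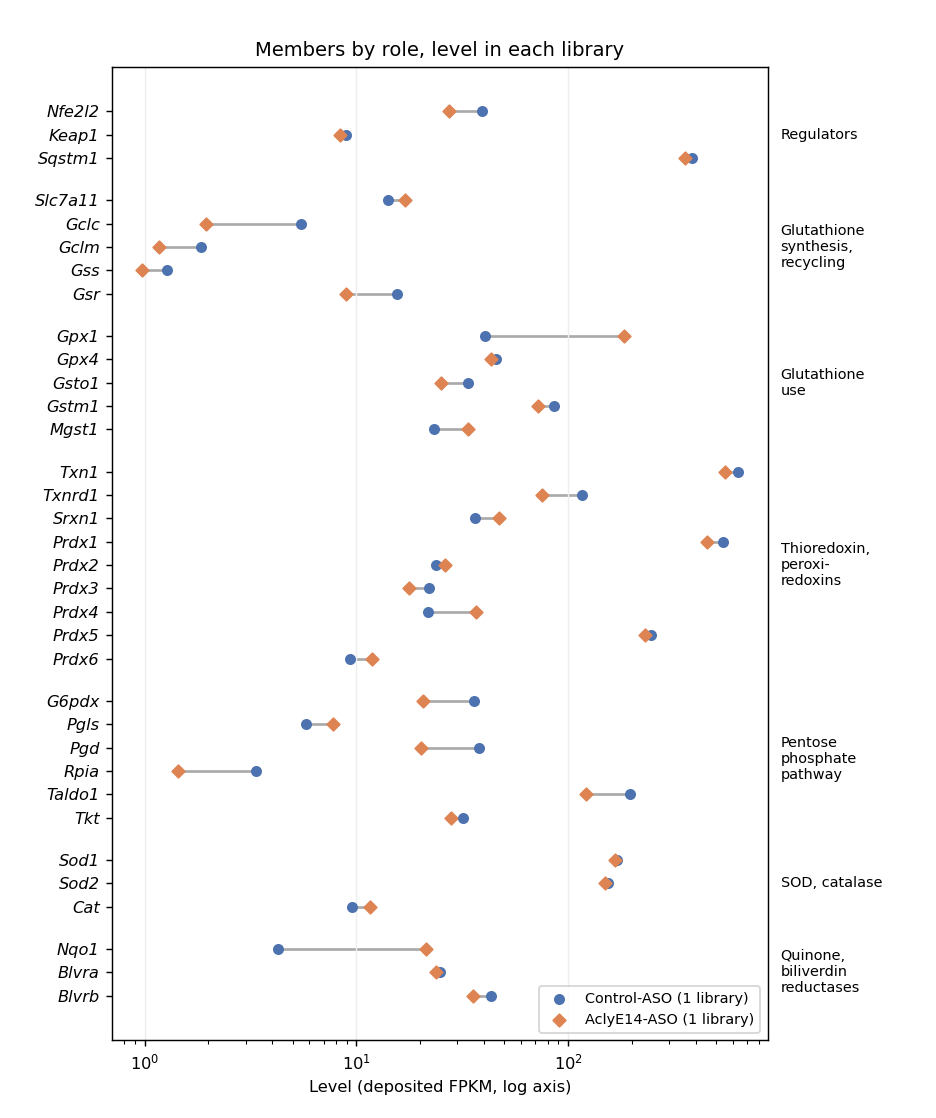
Level of each of the 34 genes in the Control-ASO library (circles) and the AclyE14-ASO library (diamonds), in the authors' FPKM on a log axis and grouped by role, with 1 library a group and no error bars. The longest lines are those of Nqo1 (4.26 and 21.3 FPKM) and Gpx1 (40.5 and 183 FPKM), which run to the right, and Gclc and Rpia, which run to the left.

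**Figure D2:**
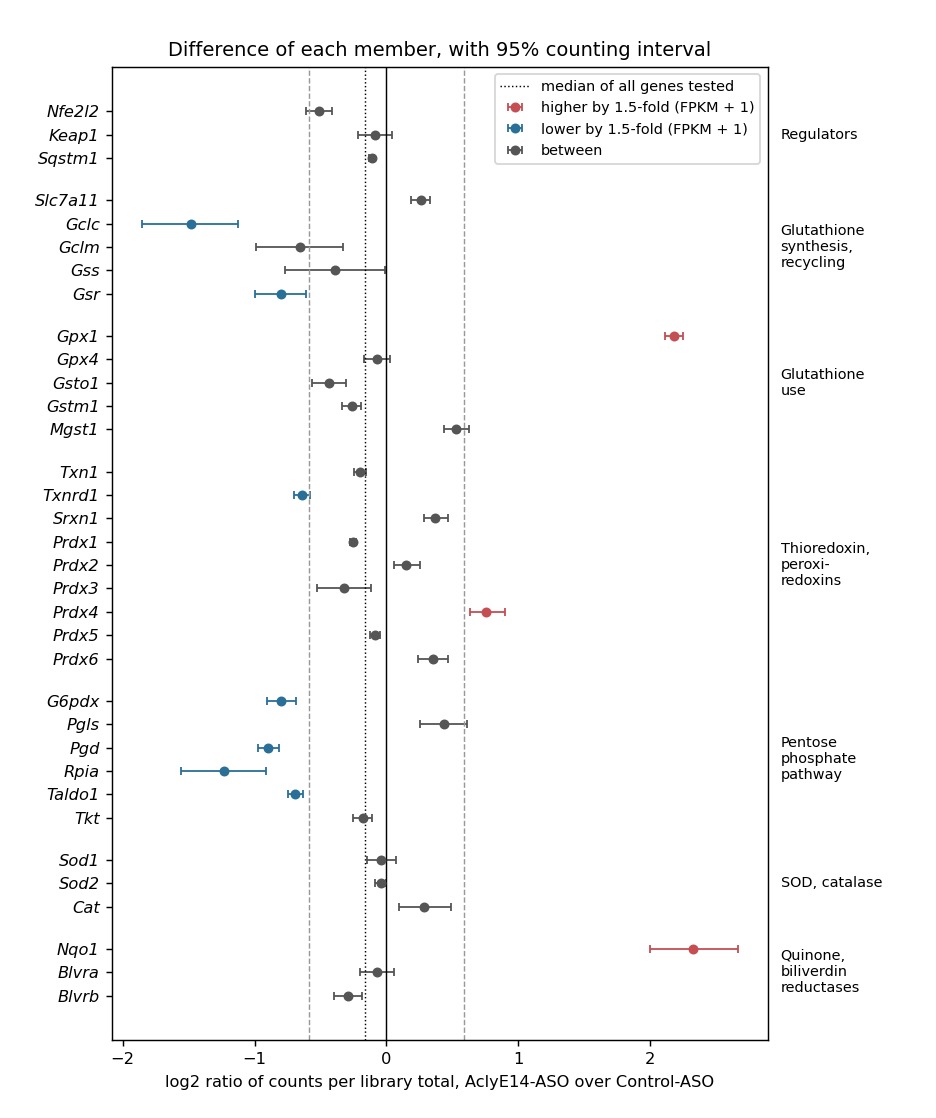
Log2 ratio of counts per library total for each gene, AclyE14-ASO over Control-ASO, with exact 95% intervals for counting error. Dashed lines mark 1.5-fold in each direction and the dotted line the median of this count ratio over all genes tested (-0.16). Of 6 pentose phosphate pathway genes 4 lie left of the lower limit.

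Among the regulators, none of the 3 passed the limit, and Nfe2l2 had the lowest ratio. Nfe2l2 was at 39.2 FPKM in the Control-ASO library and 27.5 FPKM in the AclyE14-ASO library, a count ratio of 0.702 (0.656 to 0.751), inside the 1.5-fold limit. Keap1, the adaptor that targets NRF2 for degradation, was at 8.89 and 8.37 FPKM, and its interval of 0.859 to 1.03 includes equal shares. Sqstm1 encodes p62, an autophagy receptor that binds KEAP1 and is itself an NRF2 target. It had the most counts of the 34 genes, 38298 and 31760, at 384 and 355 FPKM. Nfe2l2 had 2.21 counts per Keap1 count in the control library and 1.65 in the other, a ratio of these of 0.745 (0.663 to 0.836) that does not depend on how the libraries are scaled.

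Short promoter sequences are shown because NRF2 binds a defined element. RefSeq windows of 300 bases (GRCm38.p6), 250 before to 50 after each annotated start, were found for 31 of the 34 genes. The core of the antioxidant response element, TGACNNNGC on either strand, occurred in the windows of 10 of these 31 genes (32.3%), against 14.0% of all 27025 genes with a window. It was in 3 of the 5 lower genes with a window, in 0 of the 3 higher ones and in 7 of the 23 between. Only the Prdx1 match overlaps a motif bound by AP-1 (TGACTCA or TGAGTCA). The matches of Mgst1, Srxn1, Sod1 and Blvra are not printed. The sequences of the 3 lower genes, of the Prdx1 match, and of Nfe2l2 and Gclm follow, 5′ to 3′ in the direction of the match, which stands in capitals.
G6pdx, chrX:74428919-74428947, plus strand: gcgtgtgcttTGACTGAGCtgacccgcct
Pgd, chr4:149166061-149166089, minus strand: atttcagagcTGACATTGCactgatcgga
Txnrd1, chr10:82859104-82859132, minus strand: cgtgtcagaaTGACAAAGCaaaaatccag
Prdx1, chr4:116685456-116685484, minus strand: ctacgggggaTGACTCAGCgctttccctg
Nfe2l2, chr2:75704885-75704913, minus strand: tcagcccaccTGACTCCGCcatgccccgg
Gclm, chr3:122245413-122245441, minus strand: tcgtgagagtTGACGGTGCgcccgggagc
The 250 bases before the RefSeq starts of the 2 genes with the largest ratios are given in the direction of the gene, and these letters hold no match on either strand. GENCODE M21 starts Gpx1 earlier than this RefSeq start, so 177 of the 250 bases lie inside the Gpx1 gene as GENCODE annotates it.
Gpx1, chr9:108338830-108339079, plus strand: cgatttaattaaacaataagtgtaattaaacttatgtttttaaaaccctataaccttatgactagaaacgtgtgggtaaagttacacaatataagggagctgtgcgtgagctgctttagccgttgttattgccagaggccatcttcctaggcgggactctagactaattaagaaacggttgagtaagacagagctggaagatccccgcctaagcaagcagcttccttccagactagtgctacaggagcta
Nqo1, chr8:107403206-107403455, minus strand: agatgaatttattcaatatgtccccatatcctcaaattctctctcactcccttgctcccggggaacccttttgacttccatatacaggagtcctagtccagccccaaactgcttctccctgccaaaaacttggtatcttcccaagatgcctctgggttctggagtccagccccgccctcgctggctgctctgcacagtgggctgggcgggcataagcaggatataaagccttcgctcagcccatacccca
A match of 9 letters is a description of the sequence and shows no binding, and its absence from these windows says nothing of more distant elements.

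Glutathione synthesis and recycling held 2 of the 7 lower genes. Gclc, the catalytic subunit of glutamate-cysteine ligase, which carries out the rate-limiting step (chromosome 9, 77754535 to 77794485, plus strand, GRCm38), had 265 counts (5.45 FPKM) with the control ASO and 85 counts (1.95 FPKM) with the AclyE14-ASO. Its count ratio of 0.358 (0.277 to 0.458) was the smallest of the 34, and 1.04% of all genes tested had a lower log2 ratio. Gclm, the modifier subunit that raises the activity of the enzyme, had 216 and 123 counts, a ratio of 0.635 (0.505 to 0.796). On FPKM + 1 it stayed inside the limit (-0.39), but at its low level of 1.84 and 1.17 FPKM the added 1 matters, and with 0.1 in its place the value was -0.61. There were 1.23 Gclc counts per Gclm count in the control library and 0.691 in the AclyE14-ASO library. The ratio of these, 0.563 (0.399 to 0.794), puts the catalytic subunit lower than its partner in the AclyE14-ASO library, relative to the control.

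The other genes of this group went different ways. Gss, which adds glycine to complete the tripeptide, had 146 and 100 counts, with an interval of 0.586 to 0.992. Gsr, the reductase that regenerates glutathione with NADPH (chromosome 8), was lower at 15.6 and 8.93 FPKM, a ratio of 0.574 (0.502 to 0.656). Slc7a11, the light chain of the cystine importer and a target of NRF2 and ATF4, lay inside the limit, at 14.1 and 16.9 FPKM (ratio 1.20, 1.14 to 1.26). By counting error alone the cystine carrier lay above equal shares and Gclc, Gclm and Gss below them. On FPKM + 1 only Gclc of these passed the limit, while the count ratio of Gclm, 0.635, was also beyond 1.5-fold lower.

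Of the genes that spend glutathione, Gpx1 stood apart. Gpx1 encodes the abundant cytosolic selenoenzyme that reduces hydrogen peroxide (ENSMUSG00000063856, chromosome 9, 108338903 to 108340343, plus strand). It had 1964 counts (40.5 FPKM) in the control library and 7982 counts (183 FPKM) in the AclyE14-ASO library, a ratio of 4.53 (4.31 to 4.76), and 0.208% of genes tested had a higher log2 ratio. No annotated gene overlaps it, and its neighbour upstream, Rhoa, had 8430 and 7976 counts, nearly equal shares of the library totals. Gpx4, the peroxidase for phospholipid hydroperoxides that restrains ferroptosis, was at 45.6 and 43.4 FPKM, with an interval that includes equal shares (0.889 to 1.02). In the control library the paralogs had 1.08 Gpx1 counts per Gpx4 count, and in the AclyE14-ASO library 5.15. The summed fibroblast and stromal markers, at 49.3 and 216 FPKM, were higher in the same library as Gpx1, and their part in the difference was not tested. In bulk samples such as these, more cells of a type and more RNA per cell cannot be told apart.

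The transferases differed less. Gsto1, an omega class enzyme that removes glutathione from proteins, was at 33.8 and 25.0 FPKM (ratio 0.739, 0.675 to 0.809), and Gstm1, the most abundant transferase of the list, at 86.2 and 71.9 FPKM. Mgst1, a membrane-bound transferase and peroxidase, was at 23.3 and 33.5 FPKM (ratio 1.44, 1.35 to 1.54). It missed the 1.5-fold limit on FPKM + 1 and passed it after centring or TMM scaling (trimmed mean of M values). Reads of Gstm1 may be shared with the pseudogene Gstm2-ps1 (224 and 210 counts), 97.9% identical over 657 bases. Cfap43, on the strand opposite Gsto1, had 477 and 926 counts.

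Of the thioredoxin system 1 gene was higher, 1 lower and 7 between. Txn1, thioredoxin itself, was at 633 and 551 FPKM (ratio 0.869, 0.843 to 0.896). Txnrd1, the selenoenzyme that reduces it with NADPH, was lower, at 117 and 75.0 FPKM from 5683 and 3267 counts. Its ratio of 0.641 has an interval of 0.614 to 0.669 that just spans the 1.5-fold limit, and its log2 ratio moved inside the limit with centring (-0.51) and TMM scaling (-0.53). Relative to Txn1, Txnrd1 counts were 0.601 in the control library and 0.443 in the other, a ratio of 0.737 (0.699 to 0.777). Srxn1, which repairs overoxidised peroxiredoxins and is an NRF2 target, was at 36.3 and 47.0 FPKM (ratio 1.29, 1.22 to 1.38), inside the limit.

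The peroxiredoxins, which reduce peroxides with electrons from thioredoxin, had ratios on both sides of equal shares. Prdx1, the main cytosolic form, was at 541 and 454 FPKM, Prdx5, found in mitochondria, peroxisomes and cytosol, at 246 and 231 FPKM, and the mitochondrial Prdx3 at 22.1 and 17.7 FPKM. Ratios above 1 were those of Prdx2, a cytosolic form (23.7 and 26.3 FPKM), Prdx6, which uses glutathione (9.35 and 11.9 FPKM), and Prdx4. Only Prdx4, the form of the endoplasmic reticulum (chromosome X, 155323918 to 155340754, minus strand), passed the limit, with 761 and 1157 counts, 21.8 and 36.9 FPKM, and a ratio of 1.69 (1.55 to 1.86). Its share of all peroxiredoxin counts was 1.55% (exact interval 1.44% to 1.66%) in the control library and 2.91% (2.75% to 3.08%) in the AclyE14-ASO library. Prdx1 held 63.9% (63.5% to 64.4%) and 59.5% (59.1% to 60.0%) of these counts, so Prdx1 and Prdx5 made up most of the family in both libraries. Fibroblast and stromal markers were higher in the same library as Prdx4, and their part was not tested. Prdx2 shares its locus with Junb on the opposite strand (6290 and 8258 counts), and the sources used here do not state whether counting used the strand.

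The pentose phosphate pathway held 4 of the 7 lower genes. Of its 6 genes 4 were lower, 0 were higher and 2 lay between, where 8.48% of all genes tested were lower and 7.03% higher. The median log2 ratio was -0.73, and the summed counts of all 6 were 17103 and 10184 (ratio 0.664, 0.648 to 0.680). G6pdx, the rate-limiting dehydrogenase that makes the first NADPH (chromosome X, 74409483 to 74429194, minus strand), had 1970 and 1018 counts (35.9 and 20.7 FPKM), a ratio of 0.576 (0.534 to 0.622). Pgd, the dehydrogenase that makes the second (chromosome 4), was at 37.8 and 20.3 FPKM from 3930 and 1898 counts, a ratio of 0.538 (0.509 to 0.569), and 2.53% of genes tested had a lower log2 ratio. Pgls, the lactonase between them, was on the other side, at 5.78 and 7.78 FPKM (ratio 1.35, 1.19 to 1.53). The transcripts of both NADPH-forming enzymes were thus lower and that of the enzyme that forms none was not, while enzyme activity and NADPH were not measured. Fam129c overlaps Pgls on the same strand with 31 and 16 counts.

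In the nonoxidative branch, which exchanges sugar phosphates with glycolysis, the pattern was divided. Rpia, the ribose phosphate isomerase, had 293 and 112 counts (3.37 and 1.44 FPKM), a ratio of 0.426 (0.340 to 0.532). Taldo1, transaldolase and the most abundant gene of the pathway per length, was at 196 and 122 FPKM (ratio 0.620, 0.596 to 0.645), and moved inside the limit with centring (-0.56) and TMM scaling (-0.58). Tkt, transketolase, was at 31.9 and 28.1 FPKM (ratio 0.882, 0.838 to 0.928), close to the typical gene. Pgd had 1.16 counts per Tkt count in the control library and 0.708 in the AclyE14-ASO library, a ratio of 0.610 (0.566 to 0.658). Ikbkg overlaps G6pdx on the opposite strand with only 277 and 253 counts. The AclyE14-ASO library, in which these 4 genes were lower, is also the one in which the summed fibroblast and stromal markers were at 216 against 49.3 FPKM, and their part was not tested.

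**Figure D3:**
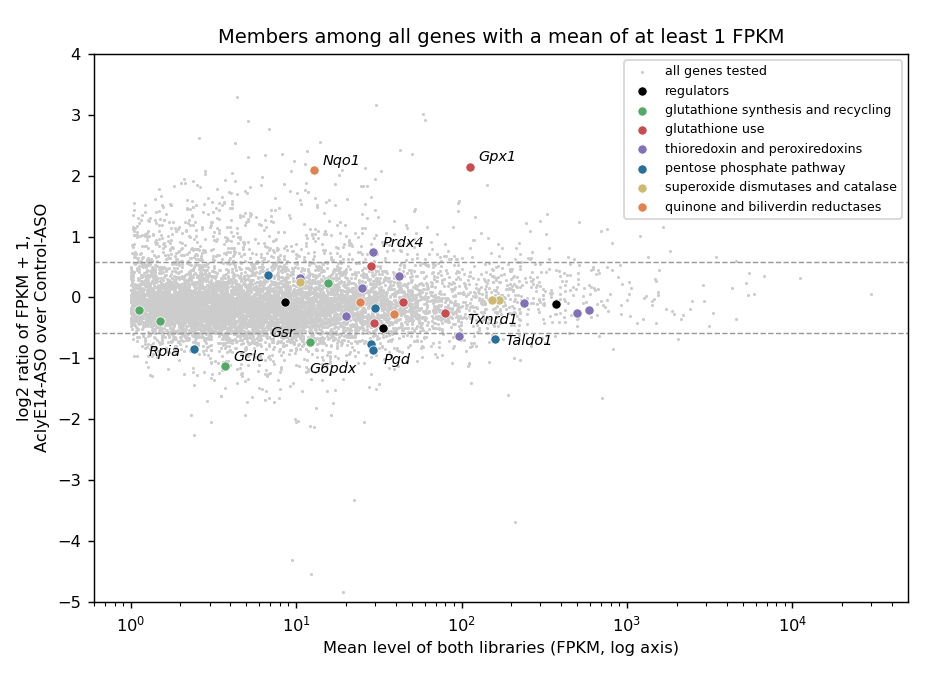
Log2 ratio of FPKM + 1 against the mean level (FPKM, log axis) for the 8658 genes tested (grey), with the 34 genes coloured by role and dashed lines at 1.5-fold. Gpx1 (2.15) and Nqo1 (2.09) lie at the upper edge of the cloud, and the labelled lower genes, from Txnrd1 (-0.64) to Gclc (-1.13), at its lower side.

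Superoxide dismutases and catalase were nearly level. Sod1, the cytosolic copper-zinc enzyme, was at 171 and 166 FPKM and Sod2, the mitochondrial manganese enzyme that LPS induces in macrophages, at 154 and 150 FPKM. Sod1 had 0.187 counts per Sod2 count in the control library and 0.188 in the other, a ratio of 1.0 (0.925 to 1.08). Cat, the peroxisomal catalase, was at 9.51 and 11.6 FPKM (ratio 1.22, 1.07 to 1.40). None of the 3 passed 1.5-fold.

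Among the reductases of quinones and biliverdin, Nqo1 differed by itself. Nqo1, which reduces quinones in a single step of paired electrons and is widely used as a readout of NRF2 (chromosome 8, 107388225 to 107403206, minus strand), had 94 counts (4.26 FPKM) with the control ASO and 422 counts (21.3 FPKM) with the AclyE14-ASO. The ratio of 5.0 (3.99 to 6.33) was the largest of the 34, and 0.243% of all genes tested had a higher log2 ratio. Blvra and Blvrb, which turn biliverdin into bilirubin, were at 24.9 and 23.7 FPKM and at 43.2 and 35.4 FPKM. Fibroblast and stromal markers, at a summed 49.3 and 216 FPKM, were higher in the same library as Nqo1, and their part in the difference was not tested.

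Further genes of these pathways were taken from 7 lists. Of 116 genes 86 were measured, of which 11 were higher (12.8%), 10 lower (11.6%) and 65 between, against 7.03% higher and 8.48% lower among all genes tested. Their median log2 ratio was -0.03, against -0.13. Centring gave 14 higher and 7 lower, and TMM 12 and 7, and the shares of all genes under these scalings are not given. Of the 11 higher genes 6 had a mean of 5 FPKM or more, so the other 5 were at low levels.

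Other glutathione genes held 7 higher and 5 lower of 26 measured, beside the same 7.03% and 8.48% of all genes. The peroxidases Gpx8, of the endoplasmic reticulum (28 and 137 counts, ratio 5.45, 3.61 to 8.51), the secreted Gpx3 (71 and 308 counts) and Gpx7 (24 and 79 counts) were higher, as was Gstm2 (181 and 311 counts). Chac1, which degrades glutathione and is induced through ATF4, was lower with 704 and 313 counts, together with its paralog Chac2 (92 and 36 counts). Slc3a2, the heavy chain that pairs with Slc7a11, was level at 145 and 155 FPKM. All 3 of these higher peroxidases were under 3 FPKM in the control library, in which the stromal markers were lower too, and the part of these markers was not tested.

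Other thioredoxin and methionine sulfoxide reductase genes held 1 higher gene, the nucleoredoxin Nxn (43 and 134 counts), and 1 lower gene, Msrb1, a selenoenzyme that repairs oxidised methionine. Nxn, at 0.839 and 2.91 FPKM, passed the filter only through the AclyE14-ASO library. Among all genes tested 7.03% were higher and 8.48% lower, so the single calls in this list of 13 and in the NADPH list of 10 lie near those shares. Msrb1 had 3911 and 1589 counts (150 and 68.0 FPKM) and a ratio of 0.453 (0.427 to 0.480), the lowest log2 ratio of the 13 measured. Of 10 measured genes for other NADPH sources only Idh1, the cytosolic isocitrate dehydrogenase, was lower (4.53 and 2.65 FPKM, ratio 0.586, 0.479 to 0.715), and 0 were higher. Me1, the cytosolic malic enzyme that draws on citrate-derived malate, was below the filter with 30 and 65 counts. Mthfd2, of mitochondrial folate metabolism, was the most abundant by deposited FPKM, at 53.5 and 48.0 FPKM, and Mthfd1 was highest in log2 ratio, with 120 and 161 counts. Nadk, the kinase that makes NADP, was at 12.4 and 7.99 FPKM (log2 ratio -0.58), just inside the limit.

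Among 17 measured partners and other targets of NRF2, Hmox1, the stress-induced haem oxygenase, had a ratio of 0.573 (0.540 to 0.608) at 82.9 and 47.5 FPKM, and was lower together with the related factor Nfe2l1 (9.57 and 5.85 FPKM). Ephx1, microsomal epoxide hydrolase, was higher with 26 and 120 counts. At 0.773 and 3.98 FPKM it passed the filter only through the AclyE14-ASO library. The ferritin heavy chain Fth1, the most abundant by deposited FPKM, had 360575 and 335008 counts. In the list of genes that spend NADPH on superoxide and nitric oxide, 9 of 10 measured lay between. Cyba and Cybb, the membrane subunits of the phagocyte oxidase, had 13768 and 12246 counts (ratio 0.992) and 26444 and 21943 counts (ratio 0.925), while the small GTPase Rac1 was higher (1018 and 3468 counts) and the cytosolic subunit Ncf4 lowest in ratio (65.7 and 47.6 FPKM). Pon2 (10.8 and 19.2 FPKM) was the 1 higher gene of 5 other antioxidant genes, where Ccs, the copper chaperone of Sod1, was lowest in ratio (14.8 and 12.1 FPKM). Among 5 genes for selenoprotein synthesis Sephs2, which makes the selenium donor, was lower (7.82 and 3.49 FPKM). Of the 17, 10, 5 and 5 genes measured in these lists, 1, 1, 1 and 0 were higher and 2, 0, 0 and 1 lower. Over all genes tested the shares were 7.03% higher and 8.48% lower, and in lists this short 1 or 2 calls say little.

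**Figure D4:**
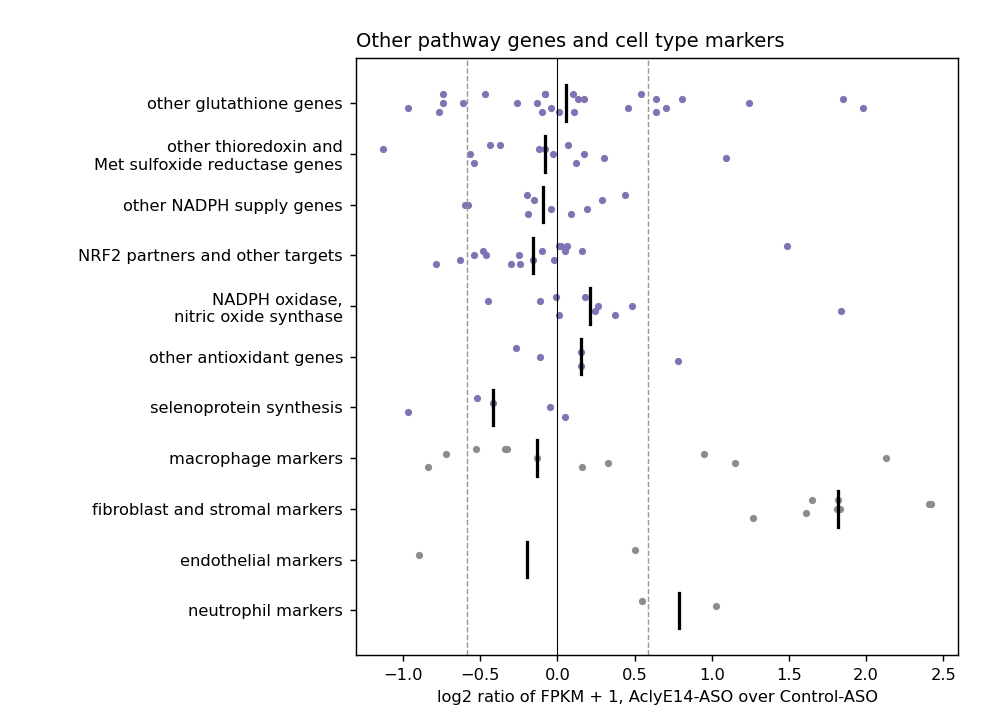
Log2 ratio of FPKM + 1 for measured genes of the 7 other pathway lists (purple) and of the marker lists with 2 or more measured genes (grey), with each list's median as a bar and dashed lines at 1.5-fold. All 8 measured fibroblast and stromal markers lie right of the upper limit, and 65 of the 86 other pathway genes lie between the limits. Among these markers, Thy1 and Pdgfra passed the filter only through the AclyE14-ASO library.

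The level of a gene was set against that of another only with caution. The length by which the authors divided the counts, recovered from FPKM, counts and library totals, was over 1.5 times the union of annotated exons for 9 of the 34 genes, among them Gpx1 (3412 against 1441 bases), and below it for 5, among them Sod1 (646 against 3970 bases). Ratios between the libraries do not depend on this length, apart from the effect of the added 1. With union lengths 3 genes were higher and 7 lower.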

How the data were processed

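Library kits, for stranded total RNA and for mRNA capture, are both listed, per the labels' protocols. The deposited table gives raw counts and FPKM per Ensembl gene, per the file headers. The submitters' processing notes name mm10, HISAT2, StringTie 1.3.0 and edgeR, with no role. The sources used here do not state how strand and multiply mapped reads were treated. Between the libraries the FPKM of 1 count differed by 1.1148 to 1.1149, the ratio of count totals, so the authors scaled FPKM to summed gene counts.

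Symbols and coordinates came from GENCODE M21 (GRCm38), which matched 34267 identifiers; the other 478 held 0.175% and 0.136% of counts and stayed in the totals. Genes whose mean reached 1 FPKM were described by log2 ratios of FPKM + 1 and by count ratios with exact intervals. Reads are not independent molecules, so intervals cover counting error only. The 34 genes, the lists, the pairs and the limits were chosen with earlier results of these data known. Every one of the 34 genes is named, and from each other list the genes with the largest and smallest ratio and the most abundant one, not all of which are printed. Nfe2l1, Gpx3, Gpx7, Gstm2, Chac2, Me1, Nadk, Cybb, Rhoa and the markers other than Lyz2, Itgam and Cd68 were named after their values were seen. Near-identical copies were sought with BLAST 2.17.0 (95% identity, at least 300 bases, 50% of the copy). R 4.3.3 with edgeR 4.0.16 gave the TMM factors. SciPy 1.17.1, pandas 2.3.3 and NumPy 2.4.6 under Python 3.11.15 were used for the rest. The calculations were tested on simulated counts with counting error only, which checks the arithmetic and says nothing of variation between cultures.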

Additional observations from a re-analysis of the deposited data

How the results depend on the processing

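The alternatives were pseudocounts of 0.1 and 5, centring, TMM, CPM + 1, filters of none and of 5 FPKM, sums with overlapping genes, and limits of 2-fold and of a log2 ratio of 0.32. Union exon lengths and sums with near-identical copies were added after seeing the data. Of the 10 genes called higher or lower, Gclc, Gpx1, Prdx4, G6pdx, Pgd and Nqo1 kept their call in the 10 alternatives at 1.5-fold, except that Gclc, with Rpia, was left out at a mean of 5 FPKM. Gsr (-0.56) and Rpia (-0.38) lost theirs with a pseudocount of 5, and Txnrd1 and Taldo1 under centring and TMM. Gclm (-0.61) became lower with a pseudocount of 0.1 and with CPM + 1, and Mgst1 became higher under centring and TMM. At a limit of 0.32 on the log2 scale 7 of the 34 genes were higher, and at 2-fold 1 was lower (Gclc). The median of the 34 moved from -0.14 to -0.02 under centring and to -0.04 under TMM, and 17 ratios stayed below 0 after centring. Among the 86 other pathway genes, 5 were higher and 4 lower with a pseudocount of 5, for which no share of all genes is given. Of the 58 with a mean of at least 5 FPKM, 6 were higher and 7 lower (6.29% and 9.60% of all genes at that level). At the limit of 0.32, 16 of the 86 were higher (14.2% of all genes tested) and 22 lower (26.7%). At 2-fold 6 were higher (3.18% of all) and 1 lower (1.55%). No paired analysis was possible because each group has 1 library, and for the same reason no library could be left out. At 85 to 265 counts, as in Gclc, Gclm and Gss, counting error alone gives wide intervals, and those of Gclm (0.505 to 0.796) and Gss (0.586 to 0.992) overlap.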

Other observations

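Selenoproteins, which carry selenocysteine and include 3 of the 34 genes, were grouped after the values had been seen. Of 24 genes with an annotated selenocysteine 19 were measured, of which 2 were higher, 4 lower and 13 between, where 7.03% of all genes tested were higher and 8.48% lower. Of the 13, Selenon (count ratio 1.59), Selenom (1.51) and Selenoh (1.62) were beyond 1.5-fold higher by counts, and Txnrd3 (0.497) beyond 1.5-fold lower. These lay between on FPKM + 1, where the added 1 matters at their low levels. The median log2 ratio of the 19 was -0.07. Gpx1 and Gpx3 were higher. Txnrd1, Msrb1, Dio2, the deiodinase that activates thyroid hormone (3412 and 239 counts), and Sephs2, which makes the selenium donor for selenocysteine (242 and 97 counts, ratio 0.447, 0.349 to 0.568), were lower. Selenop, a secreted carrier of selenium, had 3403 and 4577 counts, and Selenow 1889 and 1870.

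The lengths behind the deposited FPKM merit a look before levels are compared between genes. For 6 of the 34 genes, among them Gpx1, Nfe2l2 (3922 bases) and Srxn1 (3633 bases), the length equalled, within 1 base, the summed lengths of all annotated transcripts in GENCODE M21. The rest of the 6 were Txn1, Prdx3 and Nqo1, whose summed and union lengths are the same. The match of these genes therefore cannot tell a sum of transcripts from a union of exons. Per union of exons Gpx1 was at 95.9 and 434 and Sod1 at 27.9 and 27.1, on the FPKM scale, against 40.5 and 183 and 171 and 166 in the deposited FPKM. Sod1 was thus above Gpx1 in the control library by the deposited values and below it by union lengths.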
